A study of Mus musculus with 10 samples.

Results

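MicroRNA host genes are genes whose transcripts contain microRNA hairpins. The 10 genes described here are Slit2, Slit3, Ctdsp1, Ctdsp2, Ctdspl, Pank1, Pank3, Egfl7, Smc4 and Dleu2, of 18193 genes named on the array. They were listed by name, outside imprinted loci, and every probe set annotated to exactly 1 of these symbols was taken, which gave 25 of 45101 probe sets. Of these, 19 passed the filter on low values and were tested, and each of the 10 genes kept at least 1. The other 6 were 2 probe sets each of Slit2, Pank1 and Dleu2.

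RNA came from limb buds of mouse embryos and was measured on 10 Affymetrix arrays, 5 labelled Dicer mutant and 5 labelled wild type, numbered 1 to 5 in each group. The embryos came from mice heterozygous for a floxed Dicer allele and carrying prxcre, crossed to homozygous Dicer floxed mice. The prxcre driver expresses Cre recombinase in limb bud mesenchyme, so ectoderm, vessels and blood of a mutant limb bud are expected to keep the allele. The labels leave unstated which alleles the embryos labelled wild type carried, the embryonic stage, and whether an array holds 1 embryo or several. The p-values therefore measure only the spread between these samples. In a whole limb bud, fewer cells of a type and less RNA per cell cannot be told apart.

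A hosted microRNA can be transcribed as part of its host. The enzyme Drosha cuts the hairpin out of the transcript in the nucleus, commonly from an intron that is spliced away, and Dicer acts later, on the exported hairpin in the cytoplasm. The host RNA and the mature microRNA can thus come from 1 transcript, while only the microRNA needs Dicer. The arrays measured host transcripts and no mature microRNA.

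The best known mature microRNA of each hairpin family in the 10 hosts is shown first, because these define the group and fall into families with 1 seed each. The opposite arms of the hairpins, miR-546 in Ctdsp2 and miR-126b on the strand opposite to Egfl7 are not shown. A seed, bases 2 to 8 counted from the 5′ end, is the stretch that pairs with target messenger RNAs, and it stands in capitals. Sequences and positions are from RefSeq, assembly GRCm38.p6. Members of the first family lie in the guidance genes Slit2 (chr5:48223966-48223986, plus strand) and Slit3 (chr11:35616840-35616860, plus strand), which give the same mature sequence.
mmu-miR-218-5p: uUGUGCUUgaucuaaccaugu
The second family lies in the 3 small phosphatase genes. Ctdspl (chr9:119031811-119031832, plus strand) and Ctdsp2 (chr10:126995543-126995564, plus strand) both give miR-26a, and Ctdsp1 (chr1:74394324-74394344, plus strand) gives miR-26b. Compared base by base from the 5′ end with miR-26a, miR-26b has the substitutions C11U and C21U, outside the seed. The printed miR-26b has 21 bases and miR-26a has 22.
mmu-miR-26a-5p: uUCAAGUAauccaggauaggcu
mmu-miR-26b-5p: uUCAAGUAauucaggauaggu
The third family lies in the pantothenate kinase genes Pank3 (chr11:35782447-35782469, plus strand) and Pank1 (chr19:34820700-34820722, minus strand). Their products differ by the single substitution G22C, again outside the seed.
mmu-miR-103-3p: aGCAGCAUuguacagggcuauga
mmu-miR-107-3p: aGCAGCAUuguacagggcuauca
Egfl7 holds miR-126a (chr2:26591402-26591423, plus strand).
mmu-miR-126a-3p: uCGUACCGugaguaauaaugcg
The last family comes as clusters of 2 hairpins. Smc4 holds miR-15b (chr3:69009775-69009796, plus strand) and a copy of miR-16 (chr3:69009918-69009939, plus strand). Dleu2 holds miR-15a (chr14:61632075-61632096, minus strand) and the other copy of miR-16 (chr14:61631936-61631957, minus strand).
mmu-miR-15a-5p: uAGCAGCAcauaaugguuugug
mmu-miR-15b-5p: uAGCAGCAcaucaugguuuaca
mmu-miR-16-5p: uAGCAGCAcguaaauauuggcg
The sequences printed lay on the strand of their host in 9 of the 10 genes, and the strand of Smc4 was not in the table used. Slit3 and Pank3 are neighbours on chromosome 11, with 0 annotated genes between them.

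Dicer1, the targeted gene, was lower in the Dicer mutant arrays of every number but 2. Its probe set 1427941_at read 225.6, 359.7, 221.4, 214.6 and 204.9 in Dicer mutant 1 to 5, against 425.2, 232.6, 372.4, 390.4 and 705.8 in wild type 1 to 5. The array labelled Dicer mutant 2 thus read like the other wild type arrays, and the array labelled wild type 2 like the other mutant arrays. Whether its probes lie in the deleted exons was not looked up. Each comparison below was therefore made both in the 10 arrays as labelled and in the 8 arrays left without both numbered 2. The 8-array comparison was chosen with the Dicer1 signals known, and its p-values are not corrected for that choice. In the 8 arrays the log2 fold change of Dicer1 at this probe set was -1.08 (SE 0.18, limma adjusted p = 0.0272), with -0.83 in numbers 1 and 3 and -1.32 in numbers 4 and 5. At 1460571_at it was -0.57 (SE 0.10, adjusted p = 0.0282). In the 10 arrays both stood at an adjusted p of 1.00. The call at 1427941_at was kept in 3 of the 8 refits without 1 array, with adjusted p up to 0.0881. Array medians lay between 145.8 and 152.8. The first principal component (37.7% of the variance) parted numbers 1, 2 and 3 from 4 and 5 in both groups, so values within each side are given beside the differences. Of the marker lists, 9 of 9 limb mesenchyme genes and 8 of 8 surface ectoderm genes passed the filter, and no marker was at 0. Blood passed with 5 of 7 genes on the array, muscle with 4 of 6 and neural tissue with 1 of 4. None of these genes was called in either comparison.

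No host gene passed the test in either comparison. In the 10 arrays limma called 0 of the 19 host probe sets at an adjusted p under 0.05, where 0% of all 22519 tested probe sets were called. None of the 19 had an unadjusted p under 0.05, against 2.81% of all probe sets, and in none did the groups fail to overlap, against 0.400% (0.107% higher and 0.293% lower in the mutant arrays). Their log2 fold changes, Dicer mutant over wild type, ran from -0.23 to 0.22 with a median of 0.007, beside a median of -0.021 over all tested probe sets. In the 8 arrays 0 of 19 were called, against 1.68% of all, 0.928% higher and 0.750% lower. When the replicate number entered that fit as a block, it called 1 of 19, against 5.41% of all. An unadjusted p under 0.05 was found for 2 of 19, against 12.7%, and 1 of 19 had groups that did not overlap, against 9.09%. The 8-array values ran from -0.38 to 0.33 with a median of 0.027, beside -0.006 over all. The intervals show which changes these arrays could not exclude: that of Smc4 1427275_at ran from -0.11 to 0.16, while that of Slit3 ran from -0.53 to 0.57.

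**Figure D1:**
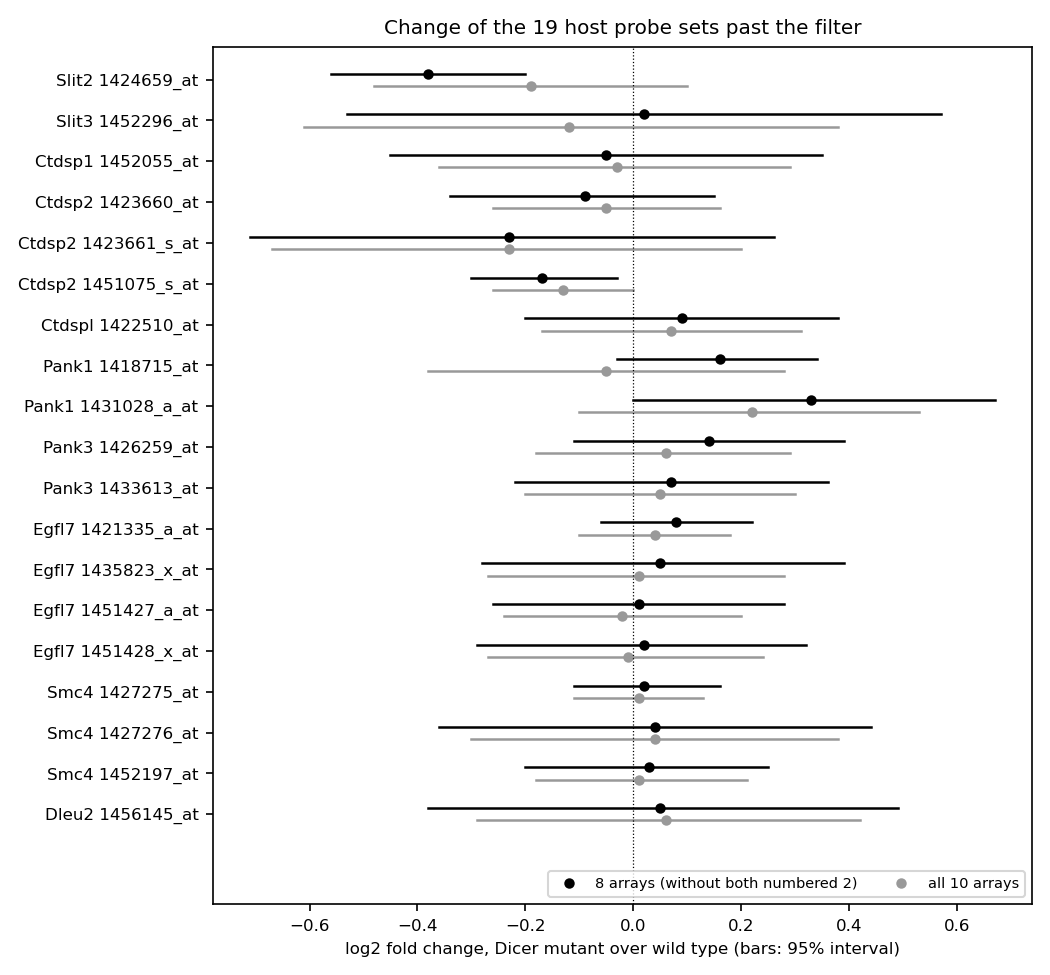
Log2 fold change of the 19 host probe sets past the filter, Dicer mutant over wild type, with 95% intervals, in 8 arrays (black) and in all 10 (grey). In the 8 arrays the intervals of Slit2 1424659_at (-0.56 to -0.20) and Ctdsp2 1451075_s_at (-0.30 to -0.03) lie below 0, and that of Pank1 1431028_a_at ends at 0.

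Slit2 encodes a secreted guidance ligand that binds Robo receptors and repels growing axons and migrating cells. Its bright probe set, 1424659_at, read 279.5, 424.8, 318.8, 324.1 and 299.5 in Dicer mutant 1 to 5, against 406.3, 284.9, 397.5, 361.9 and 424.6 in wild type 1 to 5. Outside number 2 every mutant array lay below every wild type array, and in number 2 the order was turned, as it was for Dicer1. The signal averaged 305.4 ± 20.3 in the mutant and 397.6 ± 26.3 in the wild type arrays of the 8 (SD, n = 4 each), 1.3-fold lower in the mutant arrays. The log2 fold change of -0.38 (SE 0.08) had a limma adjusted p of 0.0570, just above the threshold of 0.05. The exact permutation p (two-sided) was 0.0286, the smallest that 4 against 4 arrays allow, and 4.97% of all tested probe sets had mutant arrays wholly below the wild type arrays. The blocked fit gave it an adjusted p of 0.0447, and it was the 1 host probe set called there. Numbers 1 and 3 alone gave -0.43 (limma adjusted p = 0.0565) and numbers 4 and 5 alone -0.33 (adjusted p = 0.50). In the 10 arrays the value was -0.19 (SE 0.13, limma adjusted p = 1.00, exact p = 0.230).

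The other Slit2 probe sets were dimmer, did not pass the filter and did not share 1 direction. Probe set 1458140_at gave signals of 104.6, 184.8, 141.6, 134.1 and 148.4 in Dicer mutant 1 to 5 and 131.2, 116.5, 171.4, 152.2 and 196.7 in wild type 1 to 5. It was lower in the mutant array of each number but 2, and its groups overlapped (8 arrays, log2 fold change -0.30, SE 0.14, limma adjusted p = 0.584 among all 45037 probe sets without the filter). Probe set 1451430_at gave signals of 88.8, 85.7, 77.5, 85.7 and 77.1 in Dicer mutant 1 to 5 and 71.8, 72.2, 75.9, 72.1 and 70.8 in wild type 1 to 5. Here all 5 mutant arrays lay above all 5 wild type arrays, number 2 included, by 0.19 on the log2 scale (SE 0.06, exact p = 0.00794, the smallest that 5 against 5 allow). Limma's adjusted p was 1.00 in the 10 arrays and 0.426 in the 8. With no detection calls in the files, how far such dim probe sets lie above background is unknown.

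Slit3, the paralog of Slit2 with the same microRNA, showed no shared direction. Its single probe set had signals of 397.8, 235.1, 478.2, 302.7 and 334.5 in Dicer mutant 1 to 5, against 356.6, 373.6, 277.3, 300 and 611.8 in wild type 1 to 5. The mutant array was higher in numbers 1, 3 and 4 and lower in 2 and 5, and wild type 5 was the highest of all. The 8-array log2 fold change was 0.02 (SE 0.24, limma adjusted p = 0.993), with 0.47 in numbers 1 and 3 (adjusted p = 0.122) and -0.43 in numbers 4 and 5 (adjusted p = 0.718). Over the 8 refits without 1 array it ran from -0.11 to 0.27, and the highest value was that without wild type 5. The log2 ratio of Slit2 to Slit3 within an array was -0.29 ± 0.32 in the mutant and 0.11 ± 0.45 in the wild type arrays of the 8 (SD, n = 4 each). That difference of -0.40 did not pass an exact permutation test (p = 0.171, adjusted p = 0.429 over the 5 gene pairs compared).

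The receptors of Slit proteins are published targets of miR-218, the microRNA that both Slit genes carry. Robo2 had signals of 601.9, 760.2, 542.7, 747.4 and 635.4 in Dicer mutant 1 to 5, against 900, 522.1, 811.2, 811.1 and 874.8 in wild type 1 to 5. As with Slit2, the 4 mutant arrays outside number 2 lay below the wild type arrays. The 8-array log2 fold change was -0.43 (SE 0.10, limma adjusted p = 0.0866, or 0.0451 with the replicate number as a block). It was -0.58 in numbers 1 and 3 (adjusted p = 0.0309) and -0.29 in numbers 4 and 5 (adjusted p = 0.555), and in the 10 arrays -0.24 (adjusted p = 1.00). Robo1, named after its values were seen, had a log2 fold change of -0.26 at 1427231_at (SE 0.08, limma adjusted p = 0.156 in the 8 arrays). Its dimmer probe set 1445549_at stood the other way, at 157.5 to 168.8 in the 5 mutant and 143.9 to 151.8 in the 5 wild type arrays (log2 fold change 0.13, exact p = 0.00794 in the 10 arrays, limma adjusted p = 1.00). Of 10 measured genes in the SLIT-ROBO list of ligands, receptors and adaptors, 0 were called in either direction in either comparison, with an 8-array median of -0.001.

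**Figure D2:**
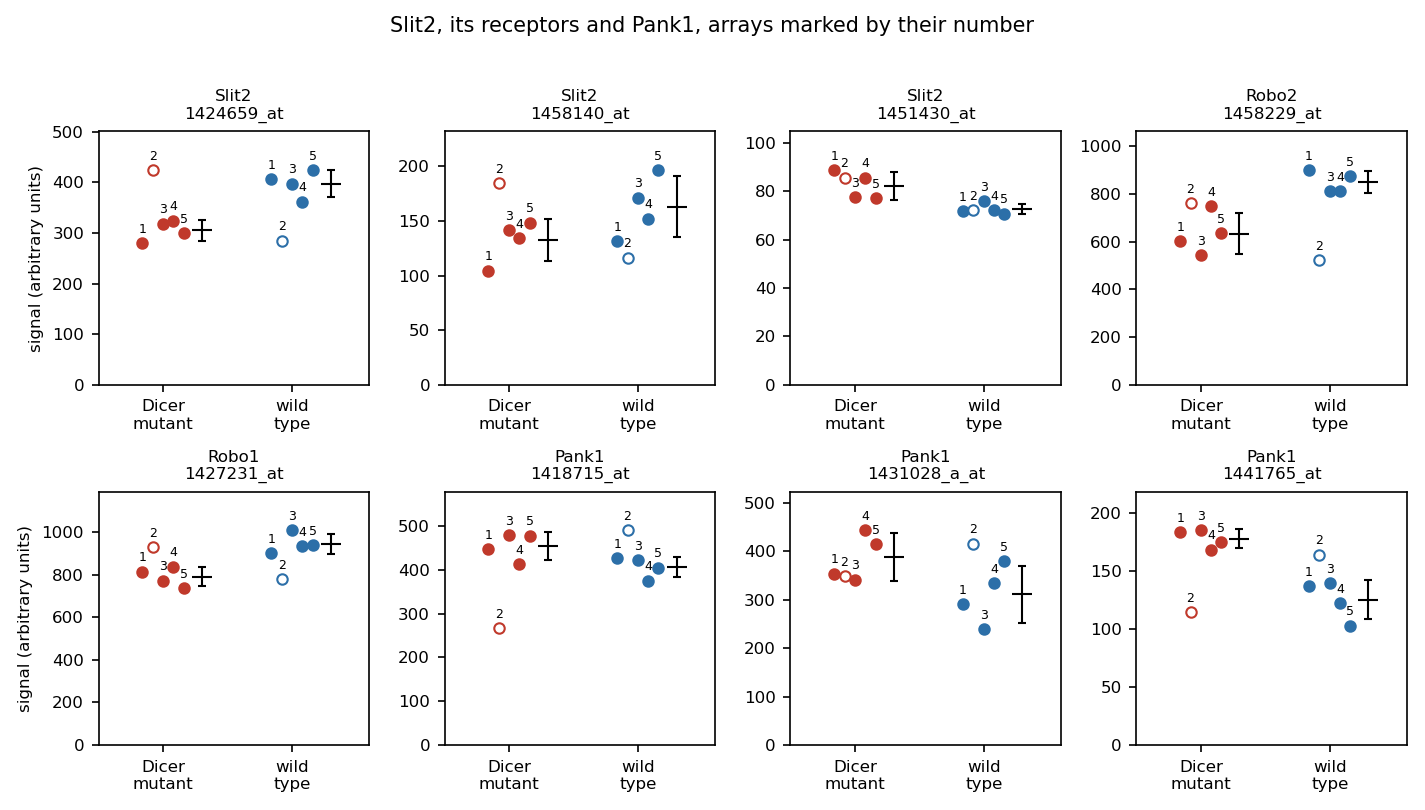
Signal (arbitrary units) of Slit2, Robo2, Robo1 and Pank1 probe sets in Dicer mutant (left, red) and wild type arrays (right, blue), each point marked with its number. Open points are the arrays numbered 2, and black bars are the mean ± SD of the other 4 arrays of a group. For Slit2 1424659_at both open points lie within or near the range of the other group, while for Slit2 1451430_at they lie with their own.

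Pank1 and Pank3 encode pantothenate kinases, which catalyse the first and rate-limiting step of coenzyme A synthesis. Pank1 had 3 probe sets that stood higher in the mutant array in each of the 4 numbers of the 8 arrays. Each was lower in the mutant array in number 2. Probe set 1418715_at gave signals of 447.6, 267.1, 479.2, 412.7 and 478.3 in Dicer mutant 1 to 5, against 427, 490.7, 421.8, 375.7 and 405.4 in wild type 1 to 5. The array labelled Dicer mutant 2 was the lowest of all 10 and the array labelled wild type 2 the highest. The 8-array log2 fold change was 0.16 (SE 0.08, limma adjusted p = 0.499), and the 10-array value was -0.05 (adjusted p = 1.00).

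Probe set 1431028_a_at of Pank1, whose suffix marks several transcripts of 1 gene, had signals of 353.4, 348.2, 341.1, 443.3 and 414.7 in Dicer mutant 1 to 5. In wild type 1 to 5 it had 290.7, 415.3, 239.6, 333.5 and 379.4. The groups overlapped, with an 8-array log2 fold change of 0.33 (SE 0.15, limma adjusted p = 0.393), 0.40 in numbers 1 and 3 and 0.27 in numbers 4 and 5. Probe set 1441765_at lay below the filter, with 183.5, 114.6, 185, 168.4 and 174.6 in Dicer mutant 1 to 5, against 136.8, 164.1, 139.4, 122.1 and 102.9 in wild type 1 to 5. In the 8 arrays it stood 1.43-fold higher in the mutant arrays (log2 fold change 0.51, SE 0.10, exact p = 0.0286) with groups that did not overlap. Mutant arrays wholly above wild type arrays were found in 4.12% of the tested probe sets, a brighter set that does not hold this one. The limma adjusted p of 1441765_at among all probe sets without the filter, of which 0.655% were called, was 0.0539 in the 8 arrays, and it was 1.00 in the 10. The remaining probe set, 1457110_at, was dim and had a log2 fold change of -0.08 (adjusted p = 0.963). Over the 10 arrays, which span both groups, the log2 signals of the 2 tested Pank1 probe sets correlated at 0.15, given as a description.

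Pank3 had small differences in the same direction, none past the test. Probe set 1426259_at gave signals of 264.9, 236.1, 248.2, 308.2 and 313.5 in Dicer mutant 1 to 5, against 244.4, 285.7, 220.5, 277.4 and 289 in wild type 1 to 5. The mutant array was higher in each number but 2 (8 arrays, 0.14, SE 0.11, limma adjusted p = 0.736). Probe set 1433613_at ranged from 1025 to 1343 in the mutant and from 958.1 to 1359 in the wild type arrays (0.07, SE 0.13, adjusted p = 0.927). The log2 ratio of Pank1 to Pank3 differed between mutant and wild type arrays by 0.09 in the 8 arrays (exact p = 0.743). None of the 5 other measured genes of coenzyme A synthesis was called, and Coasy, which encodes the enzyme of the last steps, had a log2 fold change of -0.11 (limma adjusted p = 0.717). Among 5 published targets of miR-103 and miR-107 the 1 called was Dicer1 itself, the deleted gene.

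Ctdsp1, Ctdsp2 and Ctdspl encode small phosphatases of the C-terminal domain of RNA polymerase II, which help the REST repressor silence neuronal genes. In zebrafish miR-26b acts on its own host transcript, ctdsp2. Ctdsp2 had 3 tested probe sets, each with a mean below wild type. The brightest, 1451075_s_at, had signals of 2213, 2310, 2410, 2085 and 2121 in Dicer mutant 1 to 5, against 2491, 2261, 2495, 2406 and 2500 in wild type 1 to 5. Dicer mutant 3 lay just above wild type 4, and Dicer mutant 2 above wild type 2, so the groups overlapped. The 8-array log2 fold change was -0.17 (SE 0.06, limma adjusted p = 0.280, exact p = 0.0571), and the 10-array value was -0.13 (adjusted p = 1.00, exact p = 0.0397). Its suffix marks probes that can match related transcripts.

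Probe set 1423661_s_at of Ctdsp2 was lower in the mutant array in 5 of the 5 pairs. It had 278.2, 320.7, 325.6, 186.6 and 213.9 in Dicer mutant 1 to 5, against 382.5, 385.8, 332.2, 234.4 and 227 in wild type 1 to 5. The difference between numbers 1 to 3 and 4 to 5 was larger than that between groups, and the test gave -0.23 in both comparisons (8 arrays, SE 0.22, limma adjusted p = 0.797). The unshared probe set 1423660_at stood at -0.09 (SE 0.11, adjusted p = 0.856 in the 8 arrays). Log2 signals of the 3 probe sets correlated at 0.50 to 0.83 over the 10 arrays.

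Ctdspl and Ctdsp1 differed less. Ctdspl had signals of 425.7, 435.5, 466.2, 363.9 and 395.6 in Dicer mutant 1 to 5, against 400.7, 434.6, 469, 319.9 and 369.7 in wild type 1 to 5 (8 arrays, 0.09, SE 0.13, limma adjusted p = 0.888). Ctdsp1 had 718.3, 638.7, 684.7, 447.5 and 480.5 in Dicer mutant 1 to 5, against 701, 626.4, 621.4, 489.2 and 569.2 in wild type 1 to 5 (-0.05, SE 0.18, adjusted p = 0.968). In both genes the groups overlapped over nearly their whole range. The log2 ratio of Ctdsp2 1423660_at to Ctdspl was 0.81 ± 0.05 in the mutant and 0.99 ± 0.12 in the wild type arrays of the 8 (SD, n = 4 each), a difference of -0.18 (exact p = 0.0857, adjusted p = 0.429 over 5 pairs). Of 8 measured partners and relatives in the REST list 0 were called. The one with the smallest p, the corepressor gene Rcor1, stood at 0.28 (limma adjusted p = 0.467). Of 7 measured published targets of miR-26, which include the 3 hosts, 0 were called, and Ezh2, which encodes a histone methyltransferase, stood at 0.17 (adjusted p = 0.253).

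**Figure D3:**
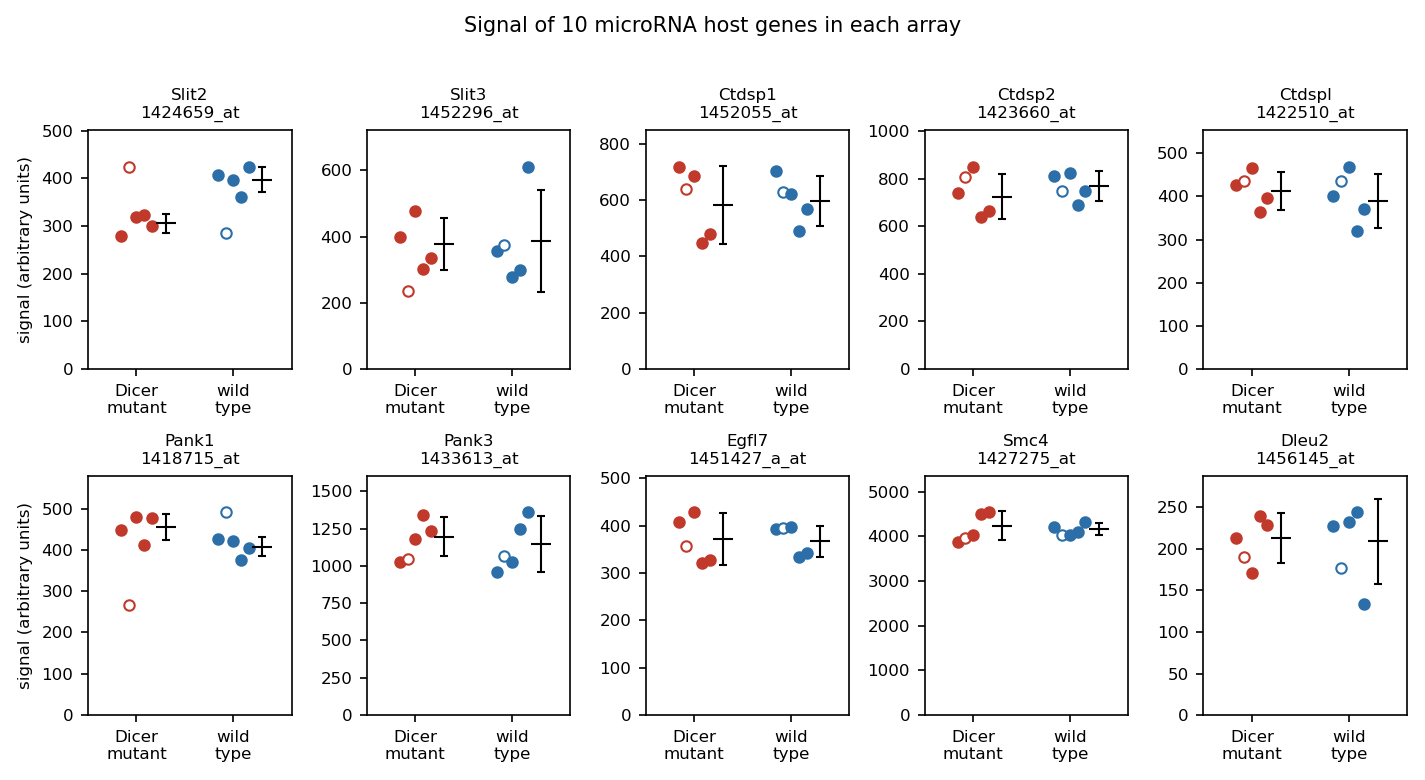
Signal (arbitrary units) of 1 tested probe set of each of the 10 host genes in Dicer mutant (left, red) and wild type arrays (right, blue). Open points are the arrays numbered 2, and black bars are the mean ± SD of the other 4 arrays of a group. The groups separate outside number 2 for Slit2 and overlap in the other 9 panels.

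Egfl7 encodes a protein secreted by endothelial cells, and miR-126 is the best known endothelial microRNA. Its 4 tested probe sets had 8-array log2 fold changes of 0.01 to 0.08, all with limma adjusted p of 0.716 or more. Probe set 1451427_a_at gave signals of 408.6, 357.4, 428.1, 321.2 and 326.8 in Dicer mutant 1 to 5, against 392.9, 394.9, 398.4, 333 and 342.6 in wild type 1 to 5. The mutant array was higher in numbers 1 and 3 only, and the groups overlapped. Probe set 1421335_a_at ranged from 181.7 to 219.8 in the mutant and from 192.5 to 201.5 in the wild type arrays. The 14 endothelial markers on the array summed to 3374 to 3437 in the mutant and 3354 to 4131 in the wild type arrays. Of these markers 13 passed the filter, and 0 of the 13 were called. Of 3 published targets of miR-126, 0 were called, and Vcam1, an adhesion molecule of activated endothelium, stood at 0.17 (adjusted p = 0.498).

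Smc4 encodes a core subunit of condensin, the complex that compacts mitotic chromosomes. Probe set 1427275_at gave signals of 3879, 3969, 4042, 4493 and 4538 in Dicer mutant 1 to 5, against 4203, 4033, 4034, 4095 and 4326 in wild type 1 to 5. The groups overlapped, with a log2 fold change of 0.02 (SE 0.06, limma adjusted p = 0.955 in the 8 arrays). The other probe sets stood at 0.04 (1427276_at, SE 0.18) and 0.03 (1452197_at, SE 0.10). Of 9 measured condensin and mitotic chromosome genes 0 were called, and Ncapg2 of condensin II had the smallest p (-0.17, adjusted p = 0.591).

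Dleu2 is a long noncoding RNA that serves as the precursor of miR-15a and miR-16-1. Its tested probe set had signals of 213.2, 189.8, 170.8, 239.4 and 228.4 in Dicer mutant 1 to 5, against 228.2, 176.8, 232.5, 244 and 133.2 in wild type 1 to 5. Wild type 5 was the lowest array and wild type 4 the highest, so the wild type range held all mutant arrays. The 8-array log2 fold change was 0.05 (SE 0.19, limma adjusted p = 0.968), with -0.27 in numbers 1 and 3 and 0.38 in numbers 4 and 5. Over the 8 refits without 1 array it ran from -0.15 to 0.15, and the lowest value was that without wild type 5. The dim probe sets 1427410_at and 1427411_s_at stood at -0.28 (adjusted p = 0.843) and -0.16 (adjusted p = 0.904), without the filter. Of 3 measured neighbours of Dleu2, 0 were called, with Trim13, a ubiquitin ligase gene, at -0.16 (adjusted p = 0.694).

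Among 12 measured published targets of miR-15 and miR-16, 1 rose and 1 fell in the 8 arrays, where 0.928% of all tested probe sets rose and 0.750% fell. The list median was 0.042, and 0 were called in the 10 arrays. Wee1, whose kinase delays entry into mitosis, had signals at 1416773_at of 1351, 984.6, 1507, 1333 and 1279 in Dicer mutant 1 to 5, against 1051, 1401, 1068, 972.8 and 939.1 in wild type 1 to 5. Outside number 2 all mutant arrays lay above all wild type arrays. It rose by 0.44 on the log2 scale (SE 0.08, limma adjusted p = 0.0337), with 0.43 in numbers 1 and 3 and 0.45 in numbers 4 and 5. Its other tested probe set, 1416774_at, was not called (0.40, SE 0.11, adjusted p = 0.118). Bcl2, the inhibitor of apoptosis and a classic miR-15/16 target, went opposite in direction to Wee1. At 1457687_at it fell by 0.66 on the log2 scale (SE 0.12, limma adjusted p = 0.0313). The value was -0.70 in numbers 1 and 3 and -0.62 in numbers 4 and 5. Of its other tested probe sets, 1437122_at was also called (-0.55, SE 0.08, limma adjusted p = 0.0134). Probe set 1422938_at was not called (-0.25, SE 0.06, limma adjusted p = 0.106). In the 8 refits without 1 array, the call of Wee1 1416773_at was kept in 1 (without wild type 5, limma adjusted p = 0.0346). That of Bcl2 1457687_at was kept in 2 (without wild type 5, 0.0342, or Dicer mutant 5, 0.0486), and that of 1437122_at in 4. In the others the adjusted p reached 0.0992 for Wee1 1416773_at, 0.0900 for Bcl2 1457687_at and 0.0546 for Bcl2 1437122_at.

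Several host probe sets differed between the arrays by replicate number. Of the 19 tested probe sets 9 had signals in all arrays numbered 4 and 5 that did not overlap those numbered 1 to 3, in both groups, against 20.0% of all tested probe sets (11.7% lower and 8.34% higher in numbers 4 and 5). Lower in numbers 4 and 5 were 6 of the 9, the single probe sets of Ctdsp1 and Ctdspl, 1423661_s_at of Ctdsp2, and 3 probe sets of Egfl7. Ctdsp1 lay at 447.5 to 569.2 in numbers 4 and 5 and at 621.4 to 718.3 in numbers 1 to 3, a log2 difference of -0.42. Ctdsp2 1423661_s_at had the largest of these differences, -0.64. Those of the 3 Egfl7 probe sets ran from -0.37 to -0.26 and that of Ctdspl was -0.28. Higher in numbers 4 and 5 were Smc4 1427276_at (0.49), Smc4 1452197_at (0.23) and Pank3 1433613_at (0.30). Smc4 1427276_at lay at 949.5 to 1059 in numbers 4 and 5 and at 678.6 to 733.2 in numbers 1 to 3. Other tested probe sets of these genes overlapped between the sides. They were Ctdsp2 1423660_at (-0.22) and 1451075_s_at (-0.06), Egfl7 1421335_a_at (-0.02), Smc4 1427275_at (0.11) and Pank3 1426259_at (0.25). Several of the 9 share a gene and are not independent. No label says what the numbers mark, and the sides were seen in the data, so these are descriptions with no test.

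Marker sums of limb mesenchyme, blood and neural tissue also did not overlap between these sides, while those of endothelium, surface ectoderm and muscle did. The summed signal of the 9 limb mesenchyme markers was 11214 to 11757 in numbers 4 and 5 and 11930 to 12976 in numbers 1 to 3. Of the 7 blood markers on the array 5 passed the filter. All 7 summed to 21544 to 24940 in numbers 4 and 5 and to 14184 to 20987 in numbers 1 to 3. Endothelial markers summed to 3354 to 4131 in numbers 4 and 5 and to 3385 to 3599 in numbers 1 to 3. The part of cell composition in these differences was not tested.

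**Figure D4:**
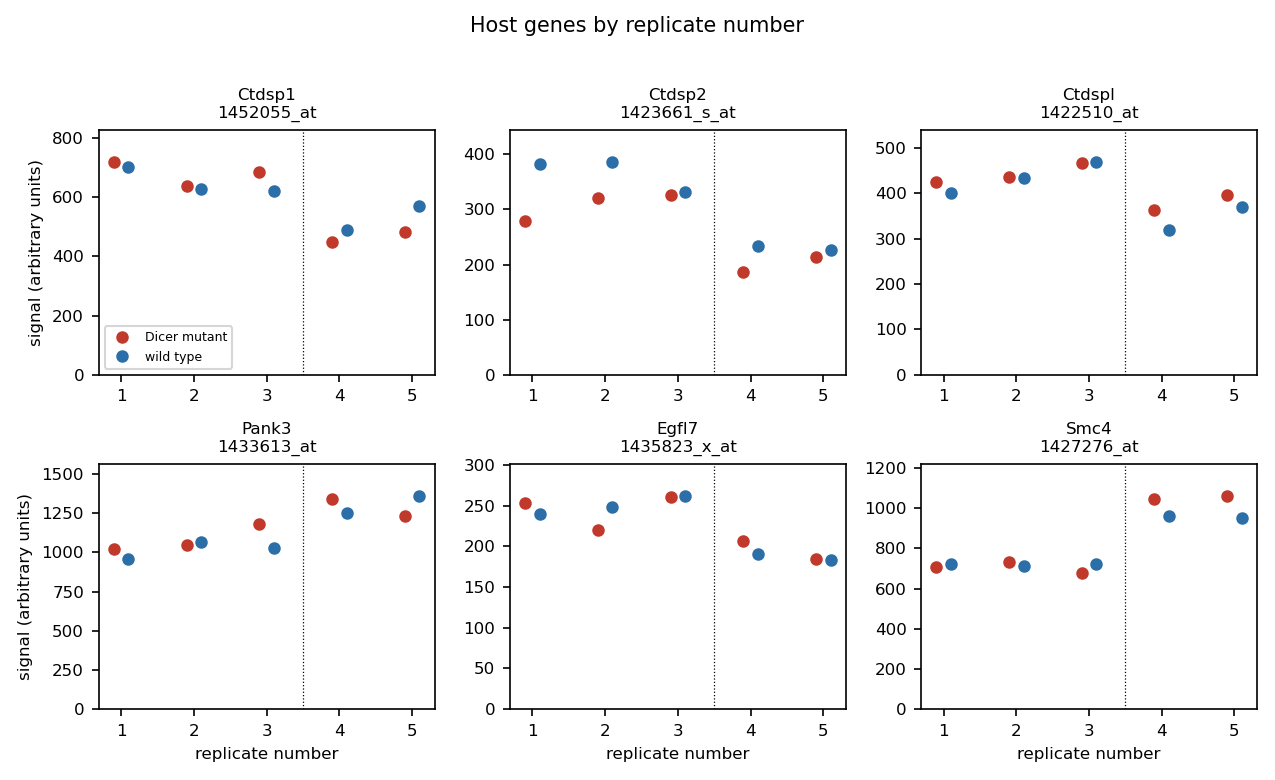
Signal (arbitrary units) of 6 host probe sets against the replicate number, Dicer mutant in red and wild type in blue, with a dotted line between numbers 3 and 4. In the Ctdsp1, Ctdsp2, Ctdspl and Egfl7 panels the 4 arrays right of the line lie below all 6 on the left, and in the Smc4 and Pank3 panels they lie above.

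The genes whose log2 signals followed each host most closely over the 10 arrays differed from host to host. These were the highest Pearson correlations among 11601 genes, given as a description. For Slit2 they were H2aj (0.961), Mff (0.947) and Tram1l1 (0.938), and for Slit3 Zkscan17 (0.953), Epas1 (0.952) and Fxyd5 (0.952). Tram1l1 fell in the mutant arrays of the 8 (log2 fold change -0.42, limma adjusted p = 0.0198), and H2aj stood at -0.41 (adjusted p = 0.0504, or 0.0373 in the blocked fit). All genes named here were picked for following a host in these same arrays. Their group differences are therefore not independent of the host's and lend it no support. Pank1 was closest to Casp6 (0.978), Hoxb3 (0.965) and Prep (0.961), none of them called. Pank3 was closest to Pdpk1 (0.976), Tmem198 (0.964) and Rictor (0.951). Ctdsp1 was closest to Ctdnep1 (0.985), another phosphatase gene of its family, then to Snrnp70 (0.984) and Nelfb (0.977). Ctdsp2 was closest to Tfe3 (0.970), Eid2 (0.968; -0.35 on the log2 scale in the 8 arrays, limma adjusted p = 0.707, or 0.0436 in the blocked fit) and Rps10 (0.964), and Ctdspl to Gpr162 (0.949), Tspyl2 (0.945) and Arhgef11 (0.938). For Egfl7 the genes were Mfsd13a (0.989), Igsf8 (0.986) and Mier2 (0.982). Smc4 was closest to E130308A19Rik (0.947), Gsdme (0.944) and Ppp1r3d (0.939), and Dleu2 to Nanp (0.946), Cdc123 (0.924) and Sdhaf2 (0.920). All these arrays share the sides by number and the reading of number 2, which such correlations also follow.

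Outside the 10 genes, a list of 26 further microRNA hosts had 20 measured members, each represented by its brightest unshared tested probe set. Of these 0 rose and 1 fell in the 8 arrays, where 0.928% of all tested probe sets rose and 0.750% fell, and 0 were called in the 10. With the replicate number as a block 2 of the 20 were called, Copz2 and Wwp2 (adjusted p = 0.0226 and 0.0224). The one that fell without the block was Copz2, which encodes a coat protein of Golgi vesicles and holds miR-152 on the same strand (chr11:96850439-96850459, plus strand), shown because its host is the 1 called by this choice of probe sets.
mmu-miR-152-3p: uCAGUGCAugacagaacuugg
Copz2 had signals of 175.5, 291, 155.9, 166.5 and 160.4 in Dicer mutant 1 to 5, against 235.9, 151.9, 262.1, 223.6 and 202.8 in wild type 1 to 5. All mutant arrays outside number 2 lay below all wild type arrays, and number 2 was turned. The log2 fold change was -0.49 (SE 0.09, limma adjusted p = 0.0299), with -0.59 in numbers 1 and 3 and -0.38 in numbers 4 and 5. Its call was kept in 1 of 8 refits without 1 array, that without wild type 5 (adjusted p = 0.0124), and its adjusted p reached 0.0992 in the others.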

How the data were processed

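Limb bud RNA was hybridised to Affymetrix arrays, 1 biotin-labelled sample per array. The authors' deposited values are linear intensity signals per probe set, made with GCOS 1.3 per the submitters' processing notes. No source used here states the summarization model or the scaling, and detection calls were not used, so dim values may be compressed. Array medians were already within a narrow range and no normalization was added. Signals were put on the log2 scale with a floor of 1. After removal of 64 control probe sets, those whose mean log2 signal reached the median (a signal of 151.4) were tested, 22519 in all. The test was limma 3.58.1 under R 4.3.3 (lmFit, eBayes with an intensity trend, Benjamini-Hochberg adjustment at 0.05), and single probe sets also with an exact two-sided permutation test. The script was tested on simulated data. The number of arrays limits the precision.

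The platform annotation gave 34958 probe sets 1 symbol and 932 several, and only the first were named. Of the genes outside the 10 hosts, the rule named up to 3 called members of each list or, with none called, the 1 with the smallest p, plus every Dicer1 probe set. Each gene of a list was represented by its brightest unshared tested probe set. The members, the lists, the 8-array comparison and the alternatives were chosen with earlier results of these data known. The replicate numbers run from 1 to 5 in either group, and their meaning is unstated in the labels. Without number 2, subtracting the group means left residuals that correlated between arrays of 1 number at 0.55, 0.55, 0.71 and 0.32 for numbers 1, 3, 4 and 5, all above the bar of 0.1 set for pairs. The highest correlations with another number were 0.54, 0.54, 0.52 and 0.52. In the 10 arrays number 2 stood at -0.18. The fits above have no block, and the blocked value is given where it changes a call. The alternatives were quantile normalization, an offset of 16 or 64 before log2, dropping the filter, a filter at the 70th percentile, a fit without the intensity trend, the replicate number as a block, numbers 1 to 3 or 4 and 5 alone, and leaving out each array.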

Additional observations from a re-analysis of the deposited data

Results flagged for a closer look

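Among 50 sets of 5 arrays (25 host probe sets in each labelled group), 2 held an array far from the other 4. The chance rate set for independent sets was 1 in 20. Several of these sets share a gene, and the sets of a group share their arrays, so the count cannot be judged by that rate. Both were Pank1 probe sets in the array labelled Dicer mutant 2. At 1418715_at its signal was 267.1, against 412.7 to 479.2 in the other Dicer mutant arrays, a gap of 0.744 of the group's log2 range. At 1441765_at it was 114.6, against 168.4 to 185, a gap of 0.805. Dicer1 in the same array went against its label, and its part in these 2 values was not tested.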

How the results depend on the processing

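In the 10 arrays all 358 alternative values of the 19 host probe sets stayed uncalled, as did 317 of 320 in the 8 arrays. The other 3 were Slit2 1424659_at, so that 1 host probe set was called in place of 0 with a filter at the 70th percentile (adjusted p = 0.0457), with no intensity trend (0.0452) and with the replicate number as a block (0.0447). Over the 8 refits without 1 array its log2 fold change ran from -0.42 to -0.34, with adjusted p from 0.0646 to 0.166. Over all probe sets, the 378 calls of the 8 arrays became 1219 with the block, 812 in numbers 1 and 3 alone and 0 in numbers 4 and 5 alone. They became 745 without wild type 5 and 93 to 142 without any other single array. The 295 calls without the filter were within 1.5 times of the 378. With the block no other host probe set was called, and the only calls it added among the genes of the lists were Robo2 and Wwp2. Dim Slit2, Pank1 and Dleu2 probe sets have no detection call, which limits what their differences show.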

Other observations

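Wwp2, which encodes a ubiquitin ligase and holds miR-140, a microRNA known from developing cartilage (chr8:107551288-107551308, plus strand, GRCm38.p6), is a further host gene with a probe set called in the 8 arrays. It was chosen after its values were seen. Its brightest probe set, 1448145_at, read 594.5, 1323, 603.4, 456.5 and 462.6 in Dicer mutant 1 to 5, against 766.4, 604.4, 1244, 825.3 and 690.4 in wild type 1 to 5. Outside number 2 the groups did not overlap, and number 2 was turned. The log2 fold change was -0.71 (SE 0.18, limma adjusted p = 0.112, or 0.0224 in the blocked fit). Probe set 1438482_at was called at -0.64 (SE 0.10, limma adjusted p = 0.0162), and kept its call in 4 of the 8 refits without 1 array, with adjusted p up to 0.0633. The other 3 tested probe sets, from -0.46 to 0.15, were not called, and in the 10 arrays all 5 had an adjusted p of 1.00. No cartilage marker list was used here, and the part of cartilage content in these values was not tested.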
